A study of Homo sapiens with 6 samples.

Results

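The matrix metalloproteinases (MMPs), ADAMs, ADAMTS proteases, ADAMTS-like proteins and TIMPs were examined in WM164 melanoma cells carrying an HDAC8 expression vector or its empty vector (EV). Every row typed as protein-coding whose symbol is MMP, ADAM, ADAMTS, ADAMTSL or TIMP followed by a number was taken, which gave 72 of the 60504 genes in the table. These were 24 MMP, 20 ADAM, 19 ADAMTS, 5 ADAMTSL and 4 TIMP symbols. One of the MMP symbols, MMP24OS, matches by its letters alone, since it is the gene on the opposite strand of MMP24 and not a protease. Another 21 rows with such symbols but another gene type were left out.

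MMPs are zinc proteases that cut collagens, other matrix proteins and many cell surface proteins, and the membrane-type MMPs do so while held at the plasma membrane. ADAMs are transmembrane proteins, of which the proteolytic ones release ("shed") the outer part of growth factors, receptors and adhesion proteins, whereas ADAMTS enzymes are secreted and act on proteoglycans, procollagens and microfibril proteins. TIMPs are the secreted inhibitors of these enzymes. In melanoma the families are known for their part in invasion through matrix and in the release of growth factor receptor ligands.

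All 6 libraries came from WM164, a human melanoma line labelled BRAFV600E, and each group had 3. HDAC8 is a class I histone deacetylase. The EV cells had received the empty expression vector and the HDAC8 cells the same vector with HDAC8, by transfection and hygromycin selection. Whether the cells were pools or single clones is not given in the sources used here, and although the labels number the 3 libraries of a group as bioreps, the study leaves its sequencing assays out of its statement on independent repeats, so p-values measure the spread between these libraries only.

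Total counts were 34953618 to 42041462 in the EV libraries and 34741083 to 41852045 in the HDAC8 libraries. The HDAC8 transcript itself, labelled as expressed from the vector, was at 384, 404 and 479 normalized counts in EV cells, against 485, 446 and 474 in HDAC8 cells. That difference was within the spread (log2 fold change 0.15, SE 0.28, DESeq2 adjusted p = 0.856), so the vector's gene did not check the labels, and every direction here is that of the libraries labelled HDAC8. Mitochondrial transcripts took 9.66% to 12.8% of the EV counts and 4.46% to 7.94% of the HDAC8 counts, and HDAC8 1 lay at 12.49 on the second principal component, apart from HDAC8 2 (-9.72) and HDAC8 3 (-4.27). The summed normalized count of 8 melanocytic markers was 244961 to 328760 in EV and 137043 to 182218 in HDAC8, and PMEL made up most of it (means 200032 and 110587). MLANA, TYR, DCT, PMEL and S100B were called lower in HDAC8. For PMEL the log2 fold change was -0.86 (DESeq2 adjusted p = 0.000174) and for S100B -0.66 (adjusted p = 0.0188). MITF and SOX10 were present in every library and were not called (log2 fold change -0.20 and -0.33, DESeq2 adjusted p = 0.544 and 0.211). TYRP1, at few counts, was not called either. Of the 8 markers, 3 were picked after their values were seen. MLANA was at 8618, 8323 and 9052 in EV and 237, 300.1 and 372 in HDAC8, with TYR at 16362, 17594 and 17720.5 against 4865, 5984 and 6215 and DCT at 17417, 19458 and 19884 against 7295, 9519 and 10036, and in none of the 3 did the groups overlap. In bulk RNA, fewer cells of a type and less RNA per cell cannot be told apart. Summed markers of other cell types were 163 to 303 against 166 to 176 for keratinocytes, 2489 to 2877 against 1461 to 2423 for fibroblasts (DCN at 0 throughout) and 97.5 to 203 against 114 to 218 for endothelium (CDH5 at 0 throughout). LUM made up most of the fibroblast sum, at 2662, 2205 and 2519 in EV and 1054, 2158 and 1676 in HDAC8. Of that list PDGFRA was called higher in HDAC8 (log2 fold change 1.16, DESeq2 adjusted p = 0.0377, edgeR 0.0530). LUM and COL1A1 lay below EV and were not called. Those of immune cells were 2357 to 3355 against 4322 to 6279, of which CD68 made up most, with PTPRC at 0 in all but HDAC8 1 (2.57), and CD3E at 0 in EV but at 78.7, 91.1 and 50.1 in HDAC8. CD68 (log2 fold change 0.92, DESeq2 adjusted p = 3.13e-05) and CD3E (adjusted p = 1.10e-06) were called higher in HDAC8, and LYZ was not called. The part of these differences in the results below was not tested.

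Of the 10 members that passed the test, 4 had a promoter entry in the RefSeq table used here (GRCh38.p14), and the 250 bases before their start sites are shown so that the genes whose transcripts changed can be read beside their control regions. They are printed 5′ to 3′ on the strand of the gene, at chr5:157575776-157576025 (minus strand) for ADAM19, chrX:47582186-47582435 (plus) for TIMP1, chr22:32801455-32801704 (plus) for TIMP3 and chr15:100341976-100342225 (minus) for ADAMTS17. Capitals mark a GC box (GGGCGG, the core bound by Sp1) or an E-box (CACGTG), on either strand.
ADAM19: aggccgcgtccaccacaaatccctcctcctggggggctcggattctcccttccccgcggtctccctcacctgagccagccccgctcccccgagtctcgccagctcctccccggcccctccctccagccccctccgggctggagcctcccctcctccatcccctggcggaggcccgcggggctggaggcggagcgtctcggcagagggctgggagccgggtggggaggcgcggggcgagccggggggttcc
TIMP1: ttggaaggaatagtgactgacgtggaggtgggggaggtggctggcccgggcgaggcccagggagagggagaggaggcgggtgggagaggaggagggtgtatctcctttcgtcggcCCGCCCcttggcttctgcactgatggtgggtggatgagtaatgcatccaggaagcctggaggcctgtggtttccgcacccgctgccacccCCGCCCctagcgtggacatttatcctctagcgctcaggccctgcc
TIMP3: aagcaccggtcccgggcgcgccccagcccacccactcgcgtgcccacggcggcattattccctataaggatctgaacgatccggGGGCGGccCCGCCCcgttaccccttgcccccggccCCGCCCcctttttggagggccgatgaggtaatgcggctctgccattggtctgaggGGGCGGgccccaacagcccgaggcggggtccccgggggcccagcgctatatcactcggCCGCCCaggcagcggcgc
ADAMTS17: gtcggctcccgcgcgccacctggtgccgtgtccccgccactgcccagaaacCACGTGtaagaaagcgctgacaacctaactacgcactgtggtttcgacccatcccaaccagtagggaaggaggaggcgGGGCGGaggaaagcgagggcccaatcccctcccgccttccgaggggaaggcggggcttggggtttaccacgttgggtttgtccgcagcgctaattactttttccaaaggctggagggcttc

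The TIMP3 window held 5 GC boxes, the TIMP1 window 2 and the ADAMTS17 window 1, whereas the ADAM19 window held none although it was the richest in G and C, at 76.4% against 72.4% for TIMP3, 64.8% for TIMP1 and 62.4% for ADAMTS17. The median over all 35116 windows of the table was 58%. The exact letters TGANTCA, a form of the AP-1 motif bound by Jun and Fos proteins, were in none of the 4 windows. Only these letters were searched, so AP-1 sites of another sequence would be missed. The TIMP1 window holds TGAGTAA, which differs from TGAGTCA by 1 base. An E-box, which MITF among others binds, was in the window of ADAMTS17. Promoter entries existed for 45 members. Among these the AP-1 letters were in 4 windows (8.89%, against 6.57% of all windows), the E-box in 5 (11.1%, against 6.34%) and the GC box in 31 (68.9%, against 42.6%). All windows were counted singly and whatever their gene type, whereas members are protein-coding and were counted once per gene. The shares are therefore not like for like. Such matches describe letters and not bound sites. The 4 members with the AP-1 letters were ADAMTS12, MMP7, MMP10 and MMP20, none of which had more than 12.6 normalized counts in any library.

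Of the 72 members, 15 had no count in any library, 3 stayed under the total of 10 counts set for testing, and DESeq2 gave no adjusted p for 5 more of low count. Among the remaining 49, 8 were higher and 2 lower in HDAC8 at an adjusted p under 0.05 with a change past 0.58 on the log2 scale either way, and 39 did not pass. The called share was 20.4%, where 11% of all 21021 genes with an adjusted p were called (5.57% higher and 5.44% lower) and 13.9% of protein-coding genes (7.25% higher and 6.62% lower). The median log2 fold change was 0.41 over the 49 members and -0.00 over all genes, with 33 members above 0 and 16 below. The HDAC8 and EV values did not overlap for 20 of the 54 tested members, against 24% of all genes tested and 31.7% of the protein-coding ones. By edgeR and by limma-voom 9 of the 10 were called, where 9.3% and 10% of all genes were. Since many of the fitted changes of low-count members were large and uncertain, the 19 members with a mean of at least 500 normalized counts were also counted, and 7 of these were called, where 16.2% of the protein-coding genes over the same mean were. That mean was taken over both groups. The called ADAMTS15 reached it through HDAC8 alone (mean 39.6 in EV and 1258 in HDAC8), so the 7 include a gene kept by its own rise. Of the 19, 12 lay above 0 and 7 below.

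**Figure D1:**
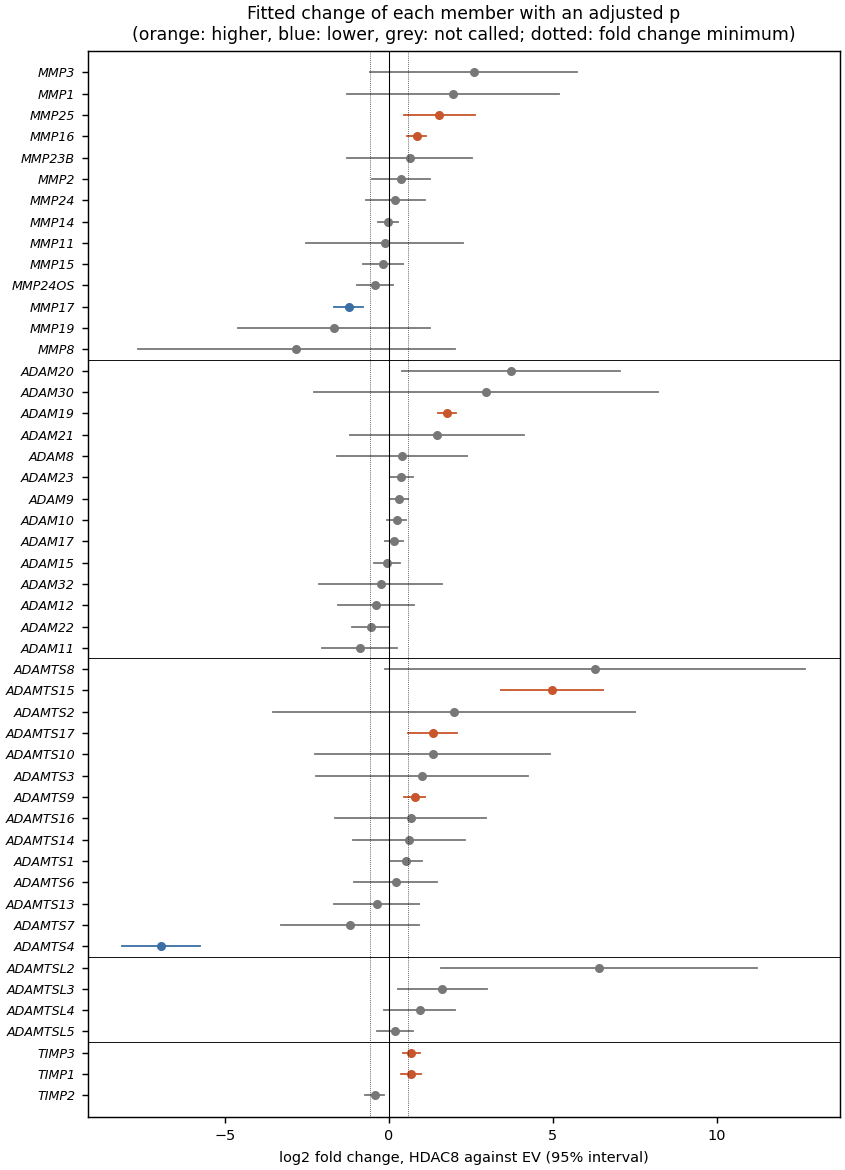
Fitted log2 fold change (x axis, HDAC8 against EV) of the 49 members with an adjusted p, with 95% intervals from the DESeq2 standard error, ordered within each family. The 8 orange points passed the test as higher and the 2 blue points, MMP17 and ADAMTS4, as lower, while most grey points with large changes have intervals that cross 0.

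The membrane-type MMPs moved in both directions. MMP16 (MT3-MMP) and MMP25 (MT6-MMP) rose and MMP17 (MT4-MMP) fell, while MMP14 (MT1-MMP), MMP15 and MMP24 did not pass the test, so that 2 of the 6 rose and 1 fell. MMP16 (ENSG00000156103, chromosome 8, 88032011 to 88328025, minus strand; all positions here are those of GENCODE release 44 on GRCh38) had 14234, 12647 and 14506 normalized counts in EV and 19816, 28359 and 26432 in HDAC8. Every HDAC8 library lay above every EV library, with means of 13796 ± 1004 against 24869 ± 4480.5 (SD, n = 3), a rise of 1.8-fold (95% interval 1.47 to 2.22), or 0.85 on the log2 scale (SE 0.15, DESeq2 adjusted p = 1.04e-06).

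MMP17 (ENSG00000198598, chromosome 12, 131828393 to 131851783, plus strand), which like MMP25 is tied to the membrane by a lipid anchor, was at 1754, 1998 and 1533 normalized counts in EV and 900.4, 581 and 776 in HDAC8. The groups did not overlap, and the means of 1762 ± 232 against 753 ± 161 (SD, n = 3) gave a fall of 2.34-fold (95% interval 1.72 to 3.19), a log2 change of -1.23 (SE 0.23, DESeq2 adjusted p = 2.72e-06). MMP25 (ENSG00000008516, chromosome 16, 3046062 to 3060726, plus strand) was the low-count member of the group, with 51.4, 82.2 and 41.4 in EV and 149.6, 168 and 193 in HDAC8. Its lowest HDAC8 value lay above its highest EV value (log2 fold change 1.54, SE 0.55, DESeq2 adjusted p = 0.0407). The call is a marginal one: the adjusted p was 0.0622 with edgeR and 0.0574 with limma-voom, and it missed the threshold with any library other than EV 2 left out (0.0564 without HDAC8 1, 0.0979 without HDAC8 2, 0.204 without HDAC8 3, 0.156 without EV 1, 0.183 without EV 3). MMP25 also shares 1454 exon bases with the antisense gene MMP25-AS1. Counting by strand is not stated, so reads of the pair could not be told apart, and MMP25-AS1 had 387, 416 and 233 in EV and 226, 303 and 325 in HDAC8 (log2 fold change -0.28, SE 0.37).

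MMP14, which activates pro-MMP2 at the cell surface, had 17481, 25538 and 19216 normalized counts in EV and 22940.1, 17979 and 20415 in HDAC8. The groups overlapped over almost their whole range (log2 fold change -0.02, SE 0.16, DESeq2 adjusted p = 0.973; 95% interval of the ratio 0.791 to 1.23). MMP15 (MT2-MMP), at a much lower count, had 591, 749 and 469.9 in EV against 669, 381 and 558 in HDAC8 (log2 fold change -0.17, SE 0.31, adjusted p = 0.844). MMP24OS had 779, 996 and 524 in EV and 563, 599 and 561 in HDAC8 (log2 fold change -0.42, adjusted p = 0.418), and shares 806 exon bases with MMP24, so the values of both are uncertain.

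The secreted MMPs were scarce in these cells. MMP9 (gelatinase B) had no count, MMP13 (collagenase 3) had none, and MMP2 (gelatinase A) had 189, 289 and 135 normalized counts in EV and 388, 188 and 216 in HDAC8, with overlapping groups (log2 fold change 0.37, SE 0.46, DESeq2 adjusted p = 0.736). A count of 0 allows up to 3 counts a library, which is 2.57 to 3.27 normalized counts here. MMP1 (interstitial collagenase) had 0, 26.2 and 0 in EV and 32.5, 28.7 and 41.4 in HDAC8. Its HDAC8 libraries lay just above EV 2, while EV 1 and EV 3 were at 0. The MMP1 test did not pass (log2 fold change 1.97, SE 1.65, DESeq2 adjusted p = 0.551). With any library other than EV 2 left out, the adjusted p was 0.595 to 0.783. It was 0.00688 without EV 2, the only EV library with counts, so that value follows from the library dropped.

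MMP8 (neutrophil collagenase), named after its values were seen, had 114, 196 and 146 in EV and 0, 0 and 64.2 in HDAC8, so that HDAC8 3 alone of its group had counts. Its test did not pass either (log2 fold change -2.83, SE 2.47, DESeq2 adjusted p = 0.573). With any library other than HDAC8 3 left out, the adjusted p was 0.558 to 0.799. It was 1.50e-07 without HDAC8 3, so that value too follows from the library dropped. None of the collagenases, gelatinases, stromelysins, matrilysins and other secreted or remaining MMPs with an adjusted p was called. The genes without a count were MMP7, MMP9, MMP13, MMP20, MMP26, MMP27 and MMP28.

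Among the proteolytic ADAMs, ADAM19 rose and the other 9 with an adjusted p did not pass the test. ADAM19 (meltrin beta; ENSG00000135074, chromosome 5, 157395534 to 157575775, minus strand), which can shed neuregulins, had 5740.1, 7511 and 5913 normalized counts in EV and 22294, 21592 and 21992 in HDAC8. The 3 HDAC8 libraries lay close together and far above EV, with means of 6388 ± 976 against 21959.7 ± 352 (SD, n = 3), a rise of 3.44-fold (95% interval 2.84 to 4.16), or 1.78 on the log2 scale (SE 0.14, DESeq2 adjusted p = 3.12e-34). It was 1 of 3 members that also passed a test of whether the change exceeds the fold minimum itself, with ADAMTS15 and ADAMTS4.

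ADAM10 and ADAM17 are the main sheddases of most cells, ADAM10 for Notch receptors and cadherins and ADAM17 for TNF and several EGF receptor ligands. ADAM10 had 15396, 13699 and 16234 normalized counts in EV and 14818, 19676 and 19061 in HDAC8, with HDAC8 1 inside the EV range and the other HDAC8 libraries above it (log2 fold change 0.24, SE 0.15, DESeq2 adjusted p = 0.333). ADAM17 had 3651, 3479 and 3908 in EV against 3841, 4374 and 4074 in HDAC8, and the groups overlapped (log2 fold change 0.15, SE 0.15, adjusted p = 0.612). The intervals of the ratio between groups ran from 0.969 to 1.44 for ADAM10 and from 0.914 to 1.36 for ADAM17. ADAM17 shares 1645 exon bases with IAH1 on the other strand, which had 899, 727 and 582 in EV and 509.6, 549 and 494 in HDAC8.

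ADAM9 (meltrin gamma) had 6995, 7338 and 8346 in EV and 8575, 10268 and 9258 in HDAC8. Its groups did not overlap, but the difference was small and did not pass (log2 fold change 0.31, SE 0.14, DESeq2 adjusted p = 0.138). ADAM15 (metargidin) had 3160.5, 4635 and 3015 in EV against 4161, 2843 and 3474 in HDAC8, with overlap (log2 fold change -0.05, SE 0.20, adjusted p = 0.953). ADAM22 and ADAM23 lack a working catalytic site and are known as LGI1 receptors in neurons. ADAM23 had 1849, 1619 and 1795 in EV and 2239, 2625 and 1982 in HDAC8 (log2 fold change 0.38, adjusted p = 0.168), and ADAM22 had 760.2, 668 and 669.9 in EV against 436, 349 and 641 in HDAC8 (log2 fold change -0.56, adjusted p = 0.235). HDAC8 lay wholly above EV for ADAM23 and wholly below it for ADAM22, and neither passed the test. Of the ADAMs, ADAM2, ADAM7, ADAM18 and ADAM29 had no count, and ADAM28 had counts in EV 1 alone.

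**Figure D2:**
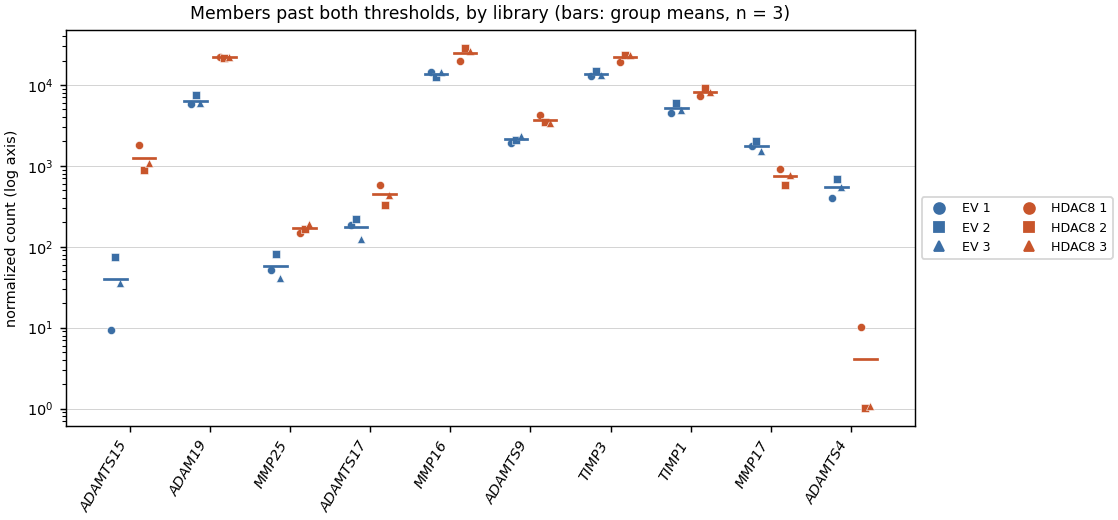
Normalized counts (y axis, log scale) of the 10 called members in each library, EV in blue and HDAC8 in orange, with the bar at the group mean (n = 3) and genes ordered from the largest rise to the largest fall. ADAMTS15 and ADAMTS4 stand at opposite ends, and in all 10 genes the groups do not overlap. The 10 were chosen by the test between these same groups, so their separation adds no support to the calls.

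The proteoglycan-cleaving ADAMTS enzymes held the largest called changes of the families, in opposite directions. Of their 7 members 5 had an adjusted p, of which 2 rose and 1 fell. ADAMTS15 (ENSG00000166106, chromosome 11, 130448645 to 130476645, plus strand), a versicanase and aggrecanase, had 9.44, 73.8 and 35.5 normalized counts in EV and 1819.6, 885 and 1070.4 in HDAC8. The lowest HDAC8 library had over 10 times the highest EV value, and the rise was 31.8-fold (95% interval 10.8 to 93.1), or 4.99 on the log2 scale (SE 0.79, DESeq2 adjusted p = 1.81e-08). With each library left out in turn the log2 fold change was 4.52 to 5.80.

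ADAMTS4 (aggrecanase 1; ENSG00000158859, chromosome 1, 161184302 to 161199054, minus strand) went the other way, with 401, 679.9 and 546 in EV and 10.3, 1.02 and 1.09 in HDAC8. The HDAC8 values rest on 12, 1 and 1 counts, so that in HDAC8 2 and HDAC8 3 the gene was under the floor of 3 counts. Its fitted log2 change of -6.95 had an SE of 0.61 (DESeq2 adjusted p = 1.16e-27), and it ran from -9.01 to -6.49 with each library left out, the lowest value being that without HDAC8 1. A filter of at least 10 counts in every library removed both ADAMTS15 and ADAMTS4 from the test.

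ADAMTS9 (ENSG00000163638, chromosome 3, 64515654 to 64688000, minus strand), which cleaves versican and aggrecan, had 1936, 2112 and 2356 in EV and 4207, 3477 and 3359 in HDAC8. All HDAC8 libraries lay above all EV libraries, a rise of 1.72-fold (95% interval 1.37 to 2.17), or 0.79 on the log2 scale (SE 0.17, DESeq2 adjusted p = 7.8e-05). ADAMTS1, the other versicanase with a mean over 500 normalized counts, had 1136, 1105 and 840.3 in EV against 1934, 1212 and 1314 in HDAC8. Its groups did not overlap, with EV 1 and HDAC8 2 close to each other, and its test did not pass (log2 fold change 0.53, SE 0.24, adjusted p = 0.134). ADAMTS5 and ADAMTS20 had no count. ADAMTS8, named for its place beside ADAMTS15, was at 0 except for 42.8 normalized counts in HDAC8 1.

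ADAMTS17 (ENSG00000140470, chromosome 15, 99971437 to 100342005, minus strand), which has been tied to short stature syndromes with lens defects, was the single called gene of the remaining ADAMTS enzymes. It had 186, 220.4 and 125 normalized counts in EV and 585, 331 and 430.1 in HDAC8, with no overlap (log2 fold change 1.34, SE 0.38, DESeq2 adjusted p = 0.00605). The adjusted p rose to 0.0661 without EV 3 and to 0.0574 without HDAC8 1. None of the procollagen-processing enzymes ADAMTS2, ADAMTS3 and ADAMTS14 was called, and in none of them did the groups separate.

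The ADAMTS-like proteins lack the protease domain and bind matrix. None of the 4 with an adjusted p was called, though their median log2 fold change was 1.29, also with ADAMTSL2, which was at 0 in EV, set at its lower bound. ADAMTSL5, the most abundant by count, had 753, 744 and 912 in EV and 607, 1207 and 918 in HDAC8 (log2 fold change 0.18, SE 0.28, DESeq2 adjusted p = 0.806). ADAMTSL3 and ADAMTSL2, named after their values were seen, had HDAC8 values wholly above EV. ADAMTSL3 had 15.7, 49.5 and 47.3 in EV against 107, 103 and 139 in HDAC8 (log2 fold change 1.63, adjusted p = 0.103), and it passed with an adjusted p of 0.0194 where genes under 10 counts in any library were left out. ADAMTSL2 was at 0 in all EV libraries and had 18, 18.4 and 9.8 in HDAC8. That HDAC8 mean was 5.19 times a floor of 3 counts per library. The 95% interval of its fitted fold change began at 3.01, and it was not called (DESeq2 adjusted p = 0.0642).

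Of the inhibitors, TIMP1 and TIMP3 rose, TIMP2 was lower by less than the fold minimum, and TIMP4 had few counts. TIMP3 (ENSG00000100234, chromosome 22, 32801705 to 32863041, plus strand), which binds to the matrix and inhibits ADAM17 and aggrecanases besides MMPs, had 13045, 14631 and 13174 normalized counts in EV and 19185, 23162 and 23089 in HDAC8. The groups were apart, with a rise of 1.6-fold (95% interval 1.34 to 1.92), or 0.68 on the log2 scale (SE 0.13, DESeq2 adjusted p = 9.27e-06). TIMP1 (ENSG00000102265, chromosome X, 47582408 to 47586789, plus strand), a soluble inhibitor that acts weakly on most membrane-type MMPs, had 4546, 5926 and 4863 in EV and 7220.3, 9032 and 8062 in HDAC8. It too was apart, with a rise of 1.59-fold (95% interval 1.28 to 1.96), or 0.66 on the log2 scale (SE 0.16, adjusted p = 0.000425).

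TIMP2, which both inhibits MMP14 and takes part in its activation of pro-MMP2, had 8955, 11189.5 and 9534 in EV and 6560.2, 7799.9 and 7649 in HDAC8. Every HDAC8 library lay below every EV library at an adjusted p of 0.027, but the log2 fold change of -0.43 (SE 0.14) did not reach 0.58. The adjusted p was 0.0834 with edgeR and 0.0559 with limma-voom. TIMP4 had 0, 7.47 and 27.6 in EV and 0 in every HDAC8 library, and DESeq2 gave it no adjusted p. TIMP1, TIMP3 and TIMP4 lie within the genes SYN1, SYN3 and SYN2, on the opposite strand, and each synapsin gene averaged at most 24.3 counts a library.

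The makeup of each family was compared per length, as counts per kilobase of annotated exon, with each member given as a percent of its family's sum in the same library. In the MMP family MMP14 was first in every library, with a mean of 68.4% in EV and 62.1% in HDAC8 and overlapping ranges (64.8% to 72.3% against 57.6% to 67.8%). MMP16 was next, at 13.7% to 20.1% in EV and 22.4% to 34.7% in HDAC8, and MMP17 went from a mean of 6.78% to 2.63%. In the ADAM family ADAM10 held 24.2% to 30.4% in EV and ADAM19 23.0% to 27.5%, and these ranges overlapped. In HDAC8, ADAM19 held 48.1% to 51.5% and ADAM10 16.5% to 21.1%, so by this length ADAM19 made up close to as much as all other ADAMs together. The length is that of all annotated exons of a gene merged, 15979 bases for ADAM10 and 7704 for ADAM19, and the transcripts in use may be shorter. By normalized count the EV means were 15109.5 for ADAM10 and 6388 for ADAM19, so such shares depend on the length used.

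ADAMTS9 led the ADAMTS family in every library, with a mean of 41.9% in EV and 40.1% in HDAC8. ADAMTS15 went from a mean of 1.35% (0.341% to 2.43%) to 23.4% (20.2% to 26.9%), beside ADAMTS1 at 23.2% in HDAC8. ADAMTS4 went from 10.9% (8.40% to 13.0%) to 0.0385% (0.0136% to 0.0882%). Among the inhibitors TIMP1 led in each library with means of 43.5% and 48.6%, TIMP3 followed with 36.7% and 41.2%, and TIMP2 went from 19.7% (19.4% to 19.8%) to 10.3% (10.02% to 10.4%). All members together took 0.278% to 0.304% of the EV counts and 0.407% to 0.415% of the HDAC8 counts, and with mitochondrial transcripts left out 0.317% to 0.338% and 0.426% to 0.449%.

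**Figure D3:**
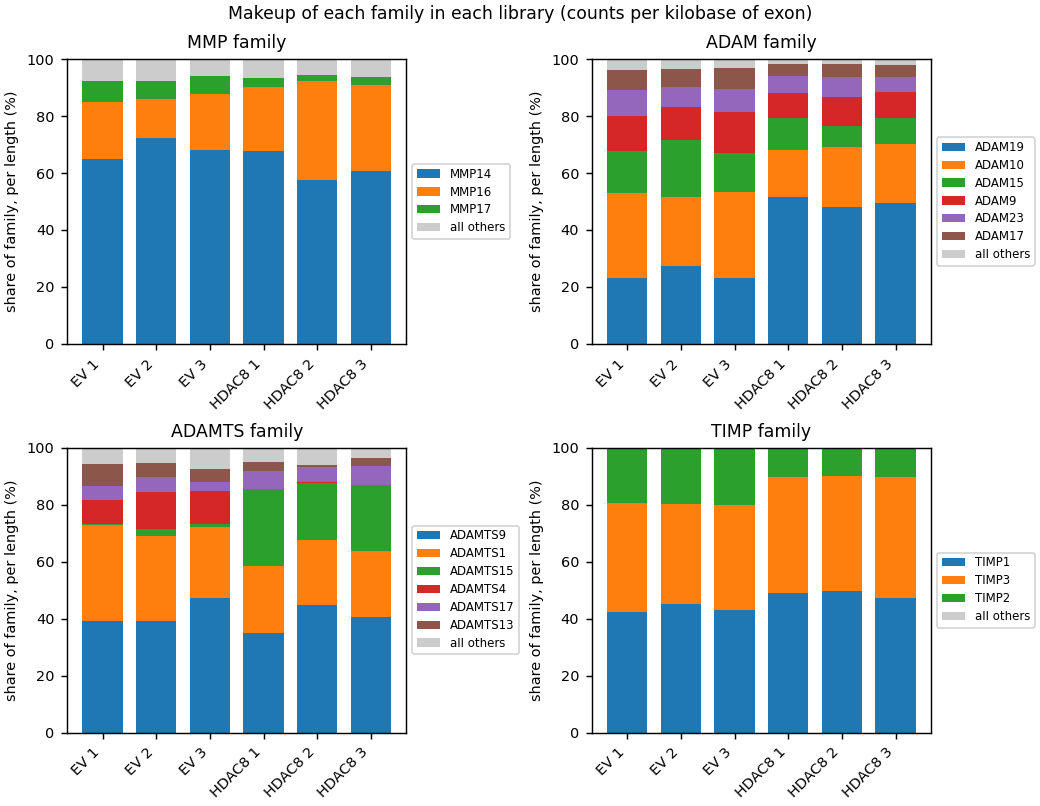
Share of each family's summed count per kilobase of exon (y axis, percent) taken by each member in each of the 6 libraries, for the MMP, ADAM, ADAMTS and TIMP families, with members that never reach 5% joined as all others. Shares depend on the exon length used, that of all annotated exons merged. By it, ADAM19 fills about as much of the ADAM bar in HDAC8 as all other ADAMs together, ADAMTS4 gives way to ADAMTS15 in the ADAMTS bar, and the TIMP2 segment narrows in the TIMP bar.

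Some neighbouring members were low together and others differed in level. The MMP cluster on chromosome 11, at 102520508 to 102955732, holds MMP7, MMP20, MMP27, MMP8, MMP10, MMP1, MMP3, MMP12 and MMP13. Of these 9 genes 4 had no count, none was called, and the highest mean was 86.7 normalized counts. On the same chromosome ADAMTS8 and ADAMTS15 lie 20.0 kb apart, the one nearly without counts and the other with the largest rise of all called members. On chromosome 21 ADAMTS1 and ADAMTS5 lie 72.5 kb apart, and ADAMTS5 had no count.

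Genes that activate, inhibit, transport or are cut by these proteases were taken from lists of 86 other genes, 66 of which had an adjusted p. In HDAC8 17 of them were higher and 8 lower, a called share of 37.9% against 11% of all genes and 13.9% of protein-coding genes. The median log2 fold change was 0.25, against -0.00 over all genes. The lists were written with earlier results of these data known, so the share says nothing on its own about such genes. That also holds for the counts of each list below. Over all genes 5.57% were called higher and 5.44% lower, and over protein-coding genes 7.25% and 6.62%.

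Among the sheddase substrates, a list chosen with earlier results of these data known, 7 of 22 rose and none fell. Membrane-anchored ligands of the EGF receptor were among them: AREG (amphiregulin) had 83.9, 108 and 146 normalized counts in EV and 1997, 2266 and 2077 in HDAC8, a rise of 18.7-fold (95% interval 13.5 to 26.1), or 4.23 on the log2 scale (SE 0.24, DESeq2 adjusted p = 2.88e-64). HBEGF had 555, 516 and 430.5 in EV against 2028, 2313 and 2149.6 in HDAC8 (log2 fold change 2.11, SE 0.20), and TGFA had 1258, 925 and 986 in EV against 1752, 1950.0 and 1884 in HDAC8 (log2 fold change 0.82, SE 0.20). The receptor tyrosine kinases AXL and MET also rose. AXL had 92.3, 156 and 135 in EV and 601, 714 and 739 in HDAC8 (log2 fold change 2.42, SE 0.33), and MET had 2749, 2910.1 and 3232 in EV against 4334, 5709 and 5620.1 in HDAC8 (log2 fold change 0.82, SE 0.16). NOTCH1, a Notch receptor that ADAM10 cuts, had 3555, 4762 and 3431 in EV against 9157, 7986 and 8173 in HDAC8 (log2 fold change 1.11, SE 0.16), and the cell surface proteoglycan SDC4 had a log2 fold change of 0.95 (SE 0.16). In all 7 the groups were apart, and the largest DESeq2 adjusted p among them was 0.000748, for TGFA. Called genes were chosen by the test between these groups, so their separation is no further support, here and below.

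Of 13 proteoglycan and matrix substrates 5 rose and 3 fell. VCAN (versican), the proteoglycan that ADAMTS1, ADAMTS4, ADAMTS9 and ADAMTS15 cut, had 10598, 11644 and 11335 normalized counts in EV and 76.1, 54.3 and 127 in HDAC8. It fell by 131-fold (95% interval 97.4 to 176), a log2 change of -7.03 (SE 0.22, DESeq2 adjusted p = 4.11e-225). BCAN (brevican), a related proteoglycan, had 3963, 5609 and 3779.9 in EV against 2000.0, 1651 and 1823 in HDAC8 (log2 fold change -1.29, SE 0.19, adjusted p = 5.99e-10). COL5A1, a fibrillar collagen chain, had 254, 315 and 371 in EV against 77, 7.17 and 110.0 in HDAC8 (log2 fold change -2.28, SE 0.66), and its adjusted p of 0.00709 became 0.0577 with edgeR, 0.0541 without EV 2 and 0.0810 without EV 3.

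The chains of basement membrane collagen rose most among the matrix genes. COL4A1 had 511, 561 and 419.7 in EV and 5443, 3423 and 3163 in HDAC8 (log2 fold change 3.01, SE 0.23), and COL4A2, its head-to-head neighbour on chromosome 13, had 448, 575 and 338 in EV against 7417, 4099.7 and 4235 in HDAC8 (log2 fold change 3.53, SE 0.25). In both, HDAC8 1 was the highest library. LTBP1, which holds latent TGF-beta in the matrix, had a log2 fold change of 1.54 (SE 0.18). Tenascin C (TNC) and fibronectin (FN1) followed with 0.90 (SE 0.15) and 0.71 (SE 0.14), and in these 3 genes the groups were apart as well, with DESeq2 adjusted p-values of at most 7.11e-06.

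Of the activators and inhibitors outside the families 2 of 12 rose and 2 fell. The testicans SPOCK1 and SPOCK2, matrix proteoglycans, rose: SPOCK1 had 72.4, 135 and 159.6 normalized counts in EV and 248, 388 and 357 in HDAC8 (log2 fold change 1.43, SE 0.44, DESeq2 adjusted p = 0.0125), and SPOCK2 had 53.5, 71 and 67 in EV against 165, 155 and 211 in HDAC8 (log2 fold change 1.47, SE 0.51, adjusted p = 0.0361). Both calls are thin. The adjusted p of SPOCK1 was 0.0982 without EV 1, 0.0779 without HDAC8 2 and 0.0947 without HDAC8 3, and that of SPOCK2 was 0.0528 with edgeR, 0.0584 with limma-voom and 0.0606 to 0.222 with any 1 of the 6 libraries left out. CTSL (cathepsin L), a lysosomal protease, had 6263, 7358 and 6429.9 in EV and 5316, 3242 and 3006 in HDAC8 (log2 fold change -0.79, SE 0.20, adjusted p = 0.00149), with HDAC8 1 nearest to EV. Its inhibitor CST3 (cystatin C) had 2306, 3023 and 2241 in EV against 1358, 1676 and 1743 in HDAC8 (log2 fold change -0.66, SE 0.19, adjusted p = 0.00777), which was -0.52 at an adjusted p of 0.105 without EV 2 and -0.56 without HDAC8 1, under the fold minimum.

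Of the 9 genes that bring ADAM10 and ADAM17 to the cell surface 1 rose and 2 fell. The tetraspanins TSPAN10 and TSPAN14, partners of ADAM10, were lower. TSPAN10 had 5237, 7605 and 4785 in EV and 1993, 2067 and 1959 in HDAC8 (log2 fold change -1.55, SE 0.19, DESeq2 adjusted p = 1.1e-14), and TSPAN14 had 14279.9, 18078 and 14456 in EV against 8736, 8116 and 8809 in HDAC8 (log2 fold change -0.87, SE 0.14, adjusted p = 2.95e-08). FRMD8, which holds the ADAM17 complex at the surface, had 1733, 2227 and 1703 in EV against 3987, 2834 and 3019 in HDAC8 (log2 fold change 0.80, SE 0.19, adjusted p = 0.000712).

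Among 10 other secreted or membrane metalloproteases 2 rose and 1 fell. ECE1, the enzyme that makes endothelin, had 5550.2, 7684 and 5864 in EV and 12064, 9922 and 12343 in HDAC8 (log2 fold change 0.85, SE 0.16, DESeq2 adjusted p = 6.01e-06). BMP1, which trims procollagens, had 957, 1666 and 1184 in EV against 2315, 1755 and 1896 in HDAC8 (log2 fold change 0.65, SE 0.23, adjusted p = 0.0414). That call was lost with edgeR (0.0952) and limma-voom (0.0539), and without EV 1 (0.274), EV 3 (0.198), HDAC8 1 (0.116) or HDAC8 3 (0.109). MME (neprilysin) had 50.3, 4.67 and 38.4 in EV and no count in HDAC8 (DESeq2 adjusted p = 0.00359). Its EV mean was 10.5 times a floor of 3 counts per library. With EV 1 left out its adjusted p was 0.130, and with EV 3 left out it was 0.0618.

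**Figure D4:**
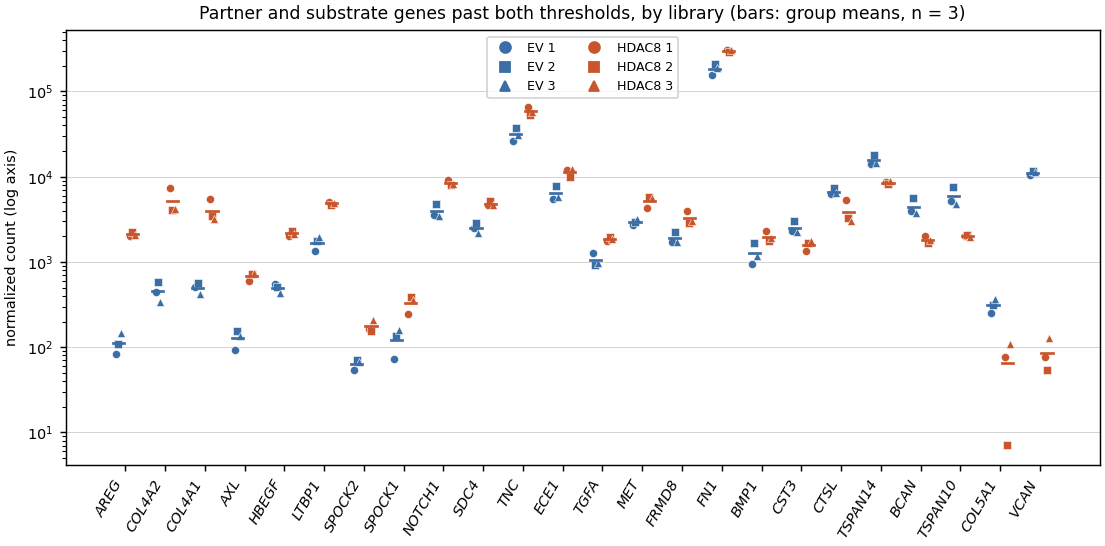
Normalized counts (y axis, log scale) of the called substrate, partner and other protease genes in each library, EV in blue and HDAC8 in orange, with the bar at the group mean (n = 3), ordered from the largest rise to the largest fall. MME is left out because it had no count in HDAC8. AREG and the 2 COL4A genes stand at the left and VCAN at the right, with groups that do not overlap. All genes shown were chosen by the test between these groups, so the separation adds no support.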

How the data were processed

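RNA-seq of WM164 cells, 3 EV and 3 HDAC8 libraries, was deposited by the authors as one table of expected counts per gene. The study's methods and the submitters' processing notes name Trimmomatic, STAR and RSEM. The genome build, the annotation and any counting by strand are not given in the sources used here. The labels and the study's methods name different RNA extraction kits. Columns were assigned to libraries by the labels.

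Members were found by symbol and gene type. They, the role lists and the lists of substrates and partners were chosen with earlier results of these data known. The rule for named genes was every called member, every member with a mean of at least 500 normalized counts, MMP1, MMP2, MMP9, MMP14, ADAM10, ADAM17, the TIMPs, HDAC8 and every called gene of the other lists. MMP8, ADAMTS8, ADAMTSL2 and ADAMTSL3 were added after their values were seen.

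Expected counts were rounded and tested over all genes with a total of at least 10 with DESeq2 1.42.0 (two-sided Wald test, R 4.3.3), its own size factors (0.918 to 1.17), no covariate and Benjamini-Hochberg adjustment over 21021 genes. A gene was called at an adjusted p under 0.05 and a change past 0.58 on the log2 scale, as in the study's methods. The study's figure legend on changed genes instead gives a p-value with no correction for multiple testing. Normalized counts are counts over size factors. Rows lacking a symbol held 0.0804% to 0.102% of a library's counts. Floors of 3 counts cover counting error only. The fits were tested on simulated data, in which each tool missed most planted changes of 1 on the log2 scale and some of 2. A gene that did not pass may therefore still differ. Each tool also called some unchanged genes, DESeq2 more of them than edgeR or limma-voom.

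Alternatives were edgeR 4.0.16 (quasi-likelihood) and limma 3.58.1 (voom), both with TMM scaling and filterByExpr, total-count or upper-quartile size factors, no mitochondrial genes, a replicate block, dropping the filter or asking for 10 counts from each library, a test against the fold minimum, no fold minimum, and each library left out in turn. Exon lengths, positions and overlaps came from GENCODE release 44, which held 56558 of the 60504 identifiers and all 72 members. Of several motifs looked at in the promoters, AP-1 and the E-box are given because the study concerns Jun and melanocytic states, and the GC box was picked after its matches were seen.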

Additional observations from a re-analysis of the deposited data

How the results depend on the processing

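Of the 10 called members 9 were also called by edgeR and by limma-voom, which lost MMP25, and all 10 by the other scalings, without mitochondrial genes and without a filter. The DESeq2 test against the fold minimum called 292 genes higher and 291 lower, 2 members higher and 1 lower, and 7 substrate and partner genes higher and 4 lower, since it asks for more than the main test. At least 10 counts in every library left 1 member lower, because ADAMTS4 was no longer tested, and that filter also dropped ADAMTS15 and gained ADAMTSL3. With 1 library left out, 877 to 1218 genes were called higher and 746 to 1378 lower (746 without EV 3), 6 to 9 members higher and 2 to 3 lower, and 14 to 18 substrate and partner genes higher and 6 to 8 lower. Values near 0 changed sign: ADAM15 was at 0.0073 and MMP14 at 0.030 (log2 fold change) with total-count size factors, and leaving out a library gave -0.19 to 0.18 for ADAM15, -0.13 to 0.15 for MMP14, -0.36 to 0.027 for MMP15, -0.017 to 0.71 for MMP2 and -0.071 to 0.40 for ADAMTSL5, none of which was called. The cause was not tested. Another scaling moved the median of all genes by at most 0.04. Same-numbered libraries did not deviate together (correlations 0.0099, -0.0324 and 0.00821), and 0 of the 6 correlated best with its own number in the other group, so the numbers do not pair them. The replicate block called 1075 genes higher and 1078 lower, 8 members higher and 3 lower (gaining MMP1 and MMP8 and losing MMP25), and 16 substrate and partner genes higher and 8 lower. At this depth a member listed at 0 could still hold up to 3 counts in a library.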
